A study of Homo sapiens with 4 samples.

Results

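The Krüppel-like factors (KLF) are DNA-binding proteins that end in a run of zinc fingers and bind GC boxes and CACCC boxes, the GC-rich elements of many promoters. The data cover 10 of them, KLF2, KLF3, KLF4, KLF5, KLF6, KLF7, KLF9, KLF10, KLF11 and KLF12, taken by symbol from the count tables of 25559 genes. HGC-27 cells come from a lymph node metastasis of a human gastric carcinoma. There were 4 RNA-seq libraries in all, 2 of cells labelled wildtype, called control here, and 2 of cells labelled RUNX3 knock-out (RUNX3 KO). RUNX3 is a Runt domain transcription factor. It was targeted with Cas9 and 1 guide RNA delivered by lentivirus, with puromycin selection and single-cell cloning. Neither the clone behind each library nor whether replicates were separate cultures was given in the sources used here. The p-values therefore cover only the spread between these libraries, which may be technical, and a clone cannot be told apart from the genotype. The paper does not say whether control cells were also transduced, selected or cloned. If they were not, these steps cannot be told apart from the genotype either.

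KLF proteins fall into groups by the partners that their N-terminal parts recruit. KLF2, KLF4, KLF5, KLF6 and KLF7 act mostly as activators, KLF3 and KLF12 bind the corepressor CtBP, and KLF9, KLF10 and KLF11 bind the corepressor SIN3. In the gut, KLF5 is known from the dividing cells of the crypt and KLF4 from differentiated epithelium. KLF2, KLF4, KLF6 and KLF10 are also known as genes that respond quickly to serum, growth factors or stress.

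RUNX3 itself had 351 and 308 counts in control and 225 and 185 after RUNX3 KO. The log2 fold change of RUNX3 was -0.70 (SE 0.0961, Benjamini-Hochberg adjusted p = 1.43e-09 over all genes, from the quasi-likelihood test of edgeR), and without RUNX3 KO replicate 2 it was -0.55 (adjusted p = 0.0649). These values are of RNA only. The paper reports that the deletion was checked at mRNA and protein level, with no RUNX3 protein on an immunoblot of the knock-out cells. Reads counted on genes numbered 11731401 to 12110876 per library. Of the epithelial markers listed (EPCAM, CDH1, KRT8, KRT18 and KRT19), KRT19 was at 0 in every library, and the summed level of the 5 was 2.80 and 2.96 CPM in control cells against 8.81 and 10.6 CPM in RUNX3 KO cells. Most of that rise was KRT8, from 1.27 to 6.42 CPM, while CDH1 went from 1.53 to 2.6 CPM, KRT18 from 0 counts in both control libraries to 2 and 14, and EPCAM from 1 count in each control library to 0. CPM scales a count to the reads on genes, with library sizes adjusted by edgeR. The gastric markers MUC5AC, TFF1, TFF2, GKN1 and PGC had 0 counts in every library, and MUC6 had 1 count in 1 of them. Of the mesenchymal markers listed (VIM, ZEB1 and ZEB2), which summed to 4996 to 5022 CPM in control and 2978 to 3052 CPM in RUNX3 KO libraries, VIM made up nearly all, with means of 4885 and 2901 CPM. ZEB1 had a log2 fold change of -0.26 and was called lower, and ZEB2 was at 0.12 and was not called. Listed fibroblast markers (PDGFRA, PDGFRB, DCN, LUM and COL3A1) summed to 2220 to 2276 CPM and 1786 to 1802 CPM in the same order. COL3A1 made up most of that sum, with means of 1903 and 1551 CPM, and all 5 were called lower, PDGFRA from 27.6 to 5.5 CPM and PDGFRB from 7.5 to 3.15 CPM. The part of these shifts in the KLF results was not tested.

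Of the 10 KLF genes, 8 had 16 promoter entries in RefSeq (GRCh38.p14). The 250 bases before the start site are printed for 3 genes: KLF4 and KLF2, which fell and rose most among the 10, and KLF5, the most abundant, whose shown promoter holds a RUNX word. Each stretch had 1 exact match on its chromosome in GRCh37, the build of the study, at chr9:110252051-110252300 (minus strand) for KLF4, chr19:16435387-16435636 (plus strand) for KLF2 and chr13:73632893-73633142 (plus strand) for KLF5. GENCODE annotates no exon in any of the 3 stretches. Those of KLF4 and KLF5 lie inside the annotated genes, which span chr9:110247133-110252763 and chr13:73629114-73651679. KLF5 has another entry, not shown, at chr13:73628864-73629113 just before its annotated start. That entry holds no GC box and no RUNX word. Capitals mark the GC box GGGCGG on either strand and, in KLF5, the word TGCGGT.
KLF4: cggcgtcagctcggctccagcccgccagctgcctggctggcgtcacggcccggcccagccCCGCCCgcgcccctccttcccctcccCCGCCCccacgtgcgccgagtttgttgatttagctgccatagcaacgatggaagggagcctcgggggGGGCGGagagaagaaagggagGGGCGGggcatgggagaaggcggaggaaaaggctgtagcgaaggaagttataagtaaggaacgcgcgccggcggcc
KLF2: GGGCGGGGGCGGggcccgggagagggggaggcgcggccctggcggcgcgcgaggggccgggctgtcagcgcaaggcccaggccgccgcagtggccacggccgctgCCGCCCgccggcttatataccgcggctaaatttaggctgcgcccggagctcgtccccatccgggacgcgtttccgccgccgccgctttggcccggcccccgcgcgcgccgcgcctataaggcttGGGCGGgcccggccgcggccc
KLF5: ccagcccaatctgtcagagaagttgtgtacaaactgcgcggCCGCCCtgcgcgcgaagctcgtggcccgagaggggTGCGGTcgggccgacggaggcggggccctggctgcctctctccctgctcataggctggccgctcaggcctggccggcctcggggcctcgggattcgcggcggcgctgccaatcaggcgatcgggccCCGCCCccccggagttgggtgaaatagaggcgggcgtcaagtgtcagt

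The stretches of KLF4 and KLF2 hold 4 GC boxes each and neither RUNX word. Whether these words have a part in the change of either gene was not tested. Over both strands, GGGCGG was present in 8 of the 16 KLF stretches and in 42.6% of the 35116 promoter stretches of the same length. The RUNX words TGTGGT or TGCGGT were present in 2 of the 16, 1 each in KLF5 and KLF7, and in 16.3% of all. The KLF7 word reads ggaagcttaaACCACActaaccattt, with TGTGGT on the opposite strand in capitals. The CACCC box CCACACCC was in none of the 16 and in 2.97% of all, and it can share 5 letters with TGTGGT. The cyclic AMP element TGACGTCA was in 1, a KLF11 promoter, and in 1.65% of all. A match is a matter of letters only and does not show that a factor binds. The paper mapped RUNX3 binding in HGC-27 cells by ChIP-seq, with more sites distal to start sites than around them. Its binding data were not used here.

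**Figure D1:**
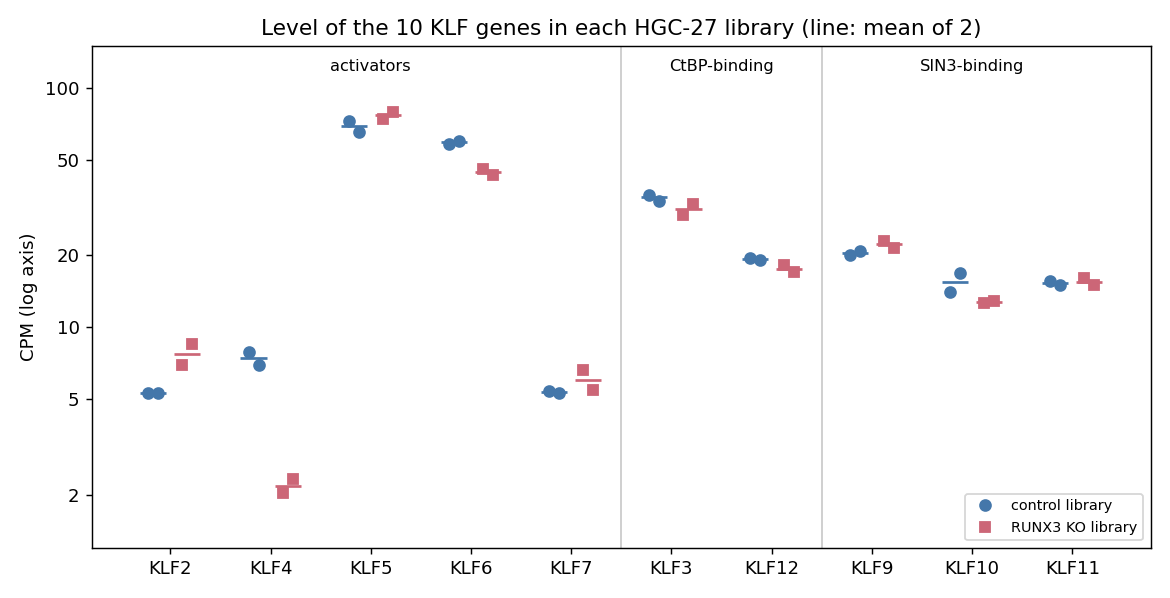
Each point is the level of a KLF gene in 1 library in CPM on a log axis, with control libraries as blue circles, RUNX3 KO libraries as red squares and the mean of 2 libraries as a line. KLF4 is the gene whose groups lie farthest apart, at 6.95 and 7.88 CPM in control and 2.03 and 2.33 CPM in RUNX3 KO cells, whereas the 4 points of KLF11 overlap.

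All 10 KLF genes passed the filter on low counts and were tested among 12967 genes. With edgeR at an adjusted p of 0.05, KLF4, KLF6 and KLF10 were lower and KLF2 and KLF5 higher in RUNX3 KO cells, and KLF3, KLF7, KLF9, KLF11 and KLF12 did not pass. This is 5 of 10 genes, or 50%, against 48.9% of all genes tested, so the KLF genes were called about as often as other genes. Lower genes made up 24.4% and higher genes 24.5% of all tested. The median log2 fold change of the 10 was -0.05, beside -0.0021 for all genes tested. The study's methods ask for a change of 2-fold or more and a p up to 0.05, without saying whether the p was adjusted. With the unadjusted p of edgeR, 1 of the 10 met this, KLF4, against 6.12% of all genes tested (4.01% lower and 2.11% higher). The RUNX3 KO libraries lay below both control libraries in 5 of the 10 genes and above both in 4, against 36.4% and 36.3% of all genes, or 72.7% together. In bulk RNA, fewer cells with a transcript and less of it per cell cannot be told apart.

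Among the activators KLF4 and KLF6 were lower, KLF2 and KLF5 were higher and KLF7 was without a call. KLF4, one of the factors used to reprogram cells to pluripotency and a regulator of epithelial differentiation, was counted 93 and 82 times in control and 24 and 28 times in RUNX3 KO cells. Both RUNX3 KO libraries lay far below both control libraries. The level of KLF4 fell from 7.41 ± 0.657 CPM (SD, n = 2) to 2.18 ± 0.209 CPM (SD, n = 2), a log2 fold change of -1.76 with a 95% interval from -2.18 to -1.34 (edgeR adjusted p = 1.19e-11). In hg19 KLF4 (ENSG00000136826) lies on chromosome 9 from 110247133 to 110252763, on the minus strand. Among the 40 tested genes closest to it the median log2 fold change was 0.33, and only 7 of them were below 0, so KLF4 moved against its neighbourhood. Exons of KLF4 share 357 bases with an antisense lncRNA, and KLF3, KLF7 and KLF11 also overlap antisense exons, so their reads cannot be told apart from those of the antisense genes if the counting ignored strand. The adjusted p of KLF4 was at most 0.0253 under every alternative with a test.

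KLF6, a ubiquitous activator that is known for inducing cell cycle inhibitors and TGF-beta signalling genes, was among the more abundant of the 10. It had 689 and 711 counts in control cells and 539 and 519 in RUNX3 KO cells. The spread within each group was small beside the gap between them, from 59.3 ± 1.34 CPM in control to 44.4 ± 1.77 CPM after RUNX3 KO (SD, n = 2 each). The log2 fold change of KLF6 was -0.42 (95% interval -0.54 to -0.29, edgeR adjusted p = 1.52e-08), and its adjusted p was at most 0.0355 under every alternative with a test. KLF6 (ENSG00000067082) lies near the end of the short arm of chromosome 10, from 3818188 to 3827473 on the minus strand. Its neighbours were lower as well. Of the nearest 28 tested genes, 25 had a log2 fold change below 0, with a median of -0.28, and KLF6 was at -0.14 relative to that median.

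KLF2, an activator best known from endothelial cells and resting T cells, had 63 counts in each control library and 82 and 102 after RUNX3 KO. The level of KLF2 rose from 5.34 ± 0.00157 CPM to 7.72 ± 1.09 CPM (SD, n = 2 in each group), so the libraries of control cells were nearly equal and those of RUNX3 KO cells differed. The log2 fold change of KLF2 was 0.53 (95% interval 0.20 to 0.87, edgeR adjusted p = 0.00623). KLF2 was not called with DESeq2 (adjusted p = 0.157) or without RUNX3 KO replicate 2 (log2 fold change 0.38, adjusted p = 0.152), a fit that called 20.1% of all genes. A fit with 1 library in a group takes the spread from the other group alone and assumes that the lone library varies alike. KLF2 (ENSG00000127528), on chromosome 19 from 16435637 to 16439496 on the plus strand, rose while 30 of its nearest 40 tested genes were below 0, with a median of -0.19.

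KLF5, an activator of proliferation in intestinal and gastric epithelium, was the most abundant of the 10. Control libraries held 863 and 774 counts of it and RUNX3 KO libraries 880 and 957. The higher control library, at 73.1 CPM, lay close to the lower RUNX3 KO library, at 74.6 CPM. The log2 fold change of KLF5 was 0.15 (95% interval 0.05 to 0.26, edgeR adjusted p = 0.0136). Without control replicate 2, RUNX3 KO replicate 1 or RUNX3 KO replicate 2 it was 0.07, 0.20 and 0.10, with adjusted p-values of 0.366, 0.169 and 0.441, and with DESeq2 the adjusted p was 0.21. The rise of KLF5 was small and was called in none of these 4 fits. KLF7, known for its role in the growth of neurons, had 64 and 63 counts in control cells and 78 and 66 after RUNX3 KO. Its log2 fold change of 0.17 had a wide 95% interval, from -0.19 to 0.52 (edgeR adjusted p = 0.461).

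KLF3 and KLF12, the CtBP-binding repressors, had values below control in both RUNX3 KO libraries but neither passed the test. KLF3, a repressor with roles in fat and blood cells, had 424 and 399 counts in control cells and 347 and 394 after RUNX3 KO, which is -0.16 on the log2 scale (95% interval -0.32 to -0.01, edgeR adjusted p = 0.0703). It passed at 0.0418 when libraries were scaled by their size alone and at 0.0417 with upper-quartile scaling. KLF12, first described as a repressor of the AP-2alpha gene TFAP2A, had 229 and 227 counts in control cells and 215 and 205 after RUNX3 KO. The log2 fold change of KLF12 was -0.13 (95% interval -0.33 to 0.07, edgeR adjusted p = 0.286). KLF5 and KLF12 are neighbours on chromosome 13, with 608546 bases and 0 tested genes between them, and their fold changes had opposite signs.

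Among the SIN3-binding repressors, KLF10 was called lower and KLF9 and KLF11 did not pass. KLF10, which is induced by TGF-beta and represses the inhibitor SMAD7, had 165 and 200 counts in control and 149 and 155 in RUNX3 KO cells. The control libraries differed more from each other than the lower of them did from the RUNX3 KO libraries, with 14.0 and 16.9 CPM in control and 12.6 and 12.9 CPM after RUNX3 KO. The log2 fold change of KLF10 was -0.28 (95% interval -0.51 to -0.05, edgeR adjusted p = 0.0405). Without control replicate 2 it was -0.13 (adjusted p = 0.49), without RUNX3 KO replicate 1 or 2 it was -0.26 and -0.29 (adjusted p = 0.32 and 0.287), and with DESeq2 the adjusted p was 0.32. KLF11, the closest relative of KLF10, differed little. It had 184 and 177 counts in control cells and 190 and 180 in RUNX3 KO cells, with a 95% interval of its log2 fold change from -0.20 to 0.24. KLF9, a gene induced by glucocorticoid and thyroid hormone, had 237 and 245 counts in control and 270 and 259 after RUNX3 KO. Its log2 fold change was 0.12 (95% interval -0.07 to 0.31), close to the median of 0.16 of its nearest 40 tested genes.

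**Figure D2:**
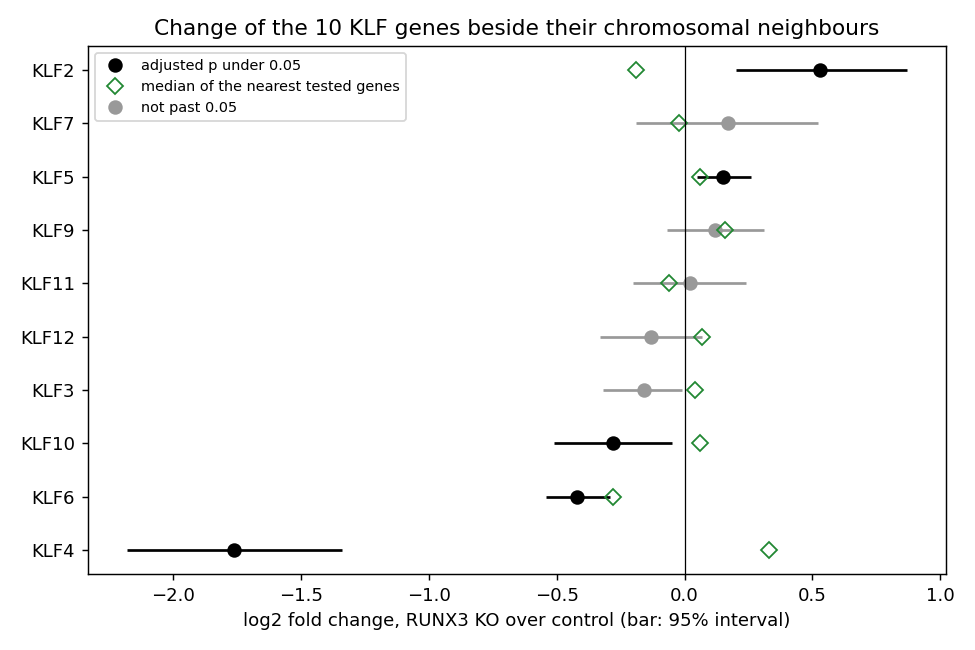
Points are log2 fold changes of RUNX3 KO over control with their 95% intervals as bars, black where the adjusted p was under 0.05 and grey otherwise, and open diamonds are the same quantity as a median over the closest tested genes of the chromosome. KLF4, at -1.76, stands apart from its neighbours at 0.33, while KLF6, at -0.42, lies beside neighbours at -0.28.

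Levels of different genes were compared as RPKM, CPM per kilobase of the Ensembl canonical transcript. In control cells the order by mean RPKM was KLF5 (20.7), KLF6 (12.9), KLF3 (6.23), KLF10 (5.30), KLF9 (3.93), KLF11 (3.79), KLF4 (2.52), KLF2 (1.89), KLF12 (1.74) and KLF7 (0.643). Libraries of adjacent genes in this order overlapped for 1 pair, KLF9 and KLF11, so their order is not resolved. In RUNX3 KO cells KLF4 was ninth at 0.743 RPKM, next to KLF7 at 0.723 RPKM, and the libraries of these genes overlapped, as did those of KLF10 and KLF9. KLF2, which had been below KLF4 in both control libraries, was above it in both RUNX3 KO libraries. With the length of all annotated exons instead, a choice made after seeing the data, the order in control cells was the same for all 10 genes, whereas in RUNX3 KO cells KLF4 came last and KLF10 ranked 6.

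The RPKM of the 10 genes summed to 60.5 and 58.9 in control and 55.8 and 57.3 in RUNX3 KO libraries. KLF5 made up 36.1% and 33.2% of that sum in control cells and 39.9% and 41.5% in RUNX3 KO cells. KLF6 made up 21.0% and 22.3% and then 17.8% and 16.4%. KLF4 fell from 4.44% and 4.02% to 1.24% and 1.38% of the sum, and KLF2 went from 3.13% and 3.21% to 4.42% and 5.25%. Shares of 1 sum are tied together, so a gene's share can move while its own level does not. With 2 libraries a group the smallest p of a two-sided exact permutation test is 0.333.

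**Figure D3:**
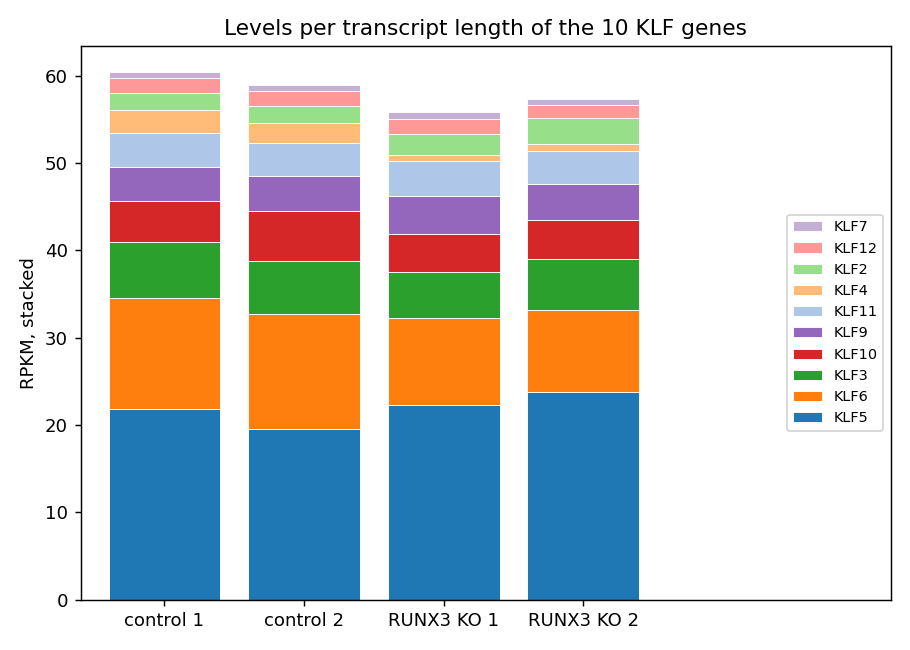
Bars stack the RPKM of the 10 KLF genes in each of the 4 libraries, with the most abundant gene at the bottom. KLF5 and KLF6 fill more than the other genes in every library, the total lies between 55.8 and 60.5 RPKM, and the KLF4 band is thinner in both RUNX3 KO libraries.

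The remaining KLF genes and the SP factors, their nearest relatives with the same type of zinc fingers, were read from the same fit. Of 17 listed genes, 16 were in the table and 9 were tested, of which 2 were lower and 2 higher, or 44.4% beside 48.9% of all genes, and their median was -0.00 on the log2 scale. KLF13, a SIN3-binding relative of KLF9 on chromosome 15, had 1032 and 989 counts in control cells and 668 and 754 after RUNX3 KO. Its log2 fold change was -0.52 (SE 0.0538, edgeR adjusted p = 3.18e-14). It fell although the 40 tested genes closest to it had a median of 0.25. SP5, a target of WNT signalling, had few counts, 43 and 39 in control and 26 and 25 after RUNX3 KO, with a log2 fold change of -0.70 (SE 0.252, edgeR adjusted p = 0.0168). KLF16 and SP8 were higher by 0.18 and 0.16 on the log2 scale (edgeR adjusted p = 0.00243 and 0.00568), and 483 exonic bases of KLF16 overlap an antisense lncRNA. The calls of SP5, KLF16 and SP8 were lost with DESeq2 and without either RUNX3 KO replicate, and those of SP5 and SP8 also without control replicate 1 and control replicate 2 respectively, with adjusted p-values from 0.0824 to 0.234. SP1, SP2, SP3, SP4 and SP9 did not pass, with log2 fold changes from -0.08 to 0.12. The others, KLF1, KLF8, KLF14, KLF15, KLF17, SP6 and SP7, had at most 5 counts in any library and were not tested.

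A list of proteins that act with or on KLF factors (corepressors, coactivators, ubiquitin ligases and the MEK5-ERK5-MEF2 pathway that induces KLF2 and KLF4) had 21 tested genes of 22, of which 5 were lower and 8 higher in RUNX3 KO cells, 61.9% in all beside 48.9% of all genes. Their median was 0.09 on the log2 scale, and MEF2C was not tested. Without control replicate 1 there were 3 lower and 6 higher (42.1% of all genes called), without RUNX3 KO replicate 1 there were 2 lower and 3 higher (22.8% of all genes were called in that fit), and without RUNX3 KO replicate 2 there were 2 lower and 4 higher (20.1% of all genes). EP300, a histone acetyltransferase, went from 2070 and 2114 counts in control to 1396 and 1450 after RUNX3 KO, which is -0.57 on the log2 scale (edgeR adjusted p = 1.65e-23). The median of the 40 tested genes around it was -0.51. MEF2A, a transcription factor downstream of ERK5, went from 484 and 457 to 768 and 764 counts, a log2 fold change of 0.69 (edgeR adjusted p = 7.52e-17), with neighbours at a median of 0.62. Both genes thus changed about as much as the genes around them. MAP2K5, which encodes MEK5, had a log2 fold change of -0.41 (edgeR adjusted p = 1.57e-05) against neighbours at 0.27, and its adjusted p was 0.0746 and 0.0512 without RUNX3 KO replicate 1 and 2. SIN3B, one of the SIN3 corepressors of KLF9, KLF10 and KLF11, had a log2 fold change of -0.40 (edgeR adjusted p = 3.27e-11) with neighbours at -0.19. SIN3A, named here after its value was seen, went from 1440 and 1403 counts to 1646 and 1642, a log2 fold change of 0.20 (edgeR adjusted p = 2.66e-05) with neighbours at 0.28. Relative to their neighbours SIN3B was at -0.20 and SIN3A at -0.08, with no test.

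Genes described elsewhere as regulated by 1 or more of the 10 factors, mostly in other cell types, made up a list of 38, of which 25 were tested. There were 6 lower and 9 higher genes, 60% of those tested beside 48.9% of all genes. Their median was 0.03 on the log2 scale, and there were 6 lower and 3 higher without RUNX3 KO replicate 1 (22.8% of all genes called) and 5 lower and 4 higher without RUNX3 KO replicate 2 (20.1% of all genes called). TFAP2A, which KLF12 represses, went from 453 and 437 counts to 192 and 224, a log2 fold change of -1.11 (SE 0.0867). KRT4, an epithelial keratin linked to KLF4, rose from 99 and 85 to 226 and 268 counts, a log2 fold change of 1.41 (SE 0.122). COL1A1, a collagen gene linked to KLF6, fell from 15098 and 14293 counts to 8010 and 8263, which is -0.87 on the log2 scale. VCAM1, an adhesion molecule that KLF2 represses, went from 273 and 279 counts to 172 and 161, a log2 fold change of -0.74 (SE 0.102). The adjusted p of these 4 genes by edgeR was at most 1.17e-09. Whether any of the 10 factors has a part in these changes was not tested.

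**Figure D4:**
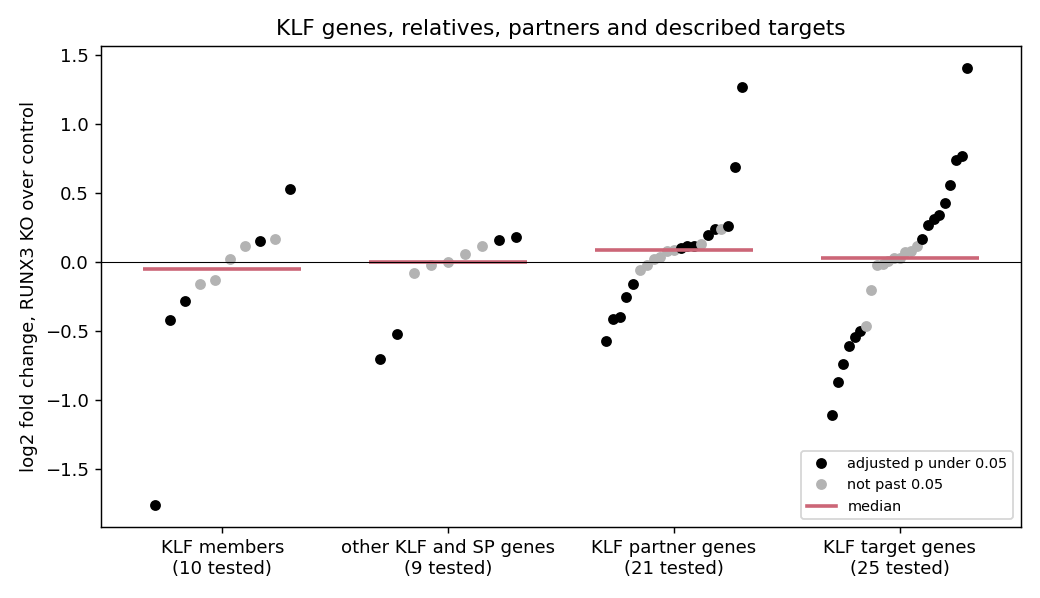
Each point is the log2 fold change of 1 tested gene, RUNX3 KO over control, sorted within the 4 lists, black where the adjusted p was under 0.05, with the list median as a red line. The medians lie between -0.05 and 0.09, and KLF4, at -1.76, is the lowest point of all 4 lists.

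The direction of the 10 fold changes varied little with scaling, filter or test, and more with the libraries left in. KLF4 and KLF6 were the 2 genes of the 10 whose call was present under every alternative with a test. KLF2, KLF5 and KLF10 lost theirs with DESeq2, under which 28.5% of all genes were called, and without RUNX3 KO replicate 2, under which 20.1% were. Without RUNX3 KO replicate 1 the share of all genes called was 22.8%, without control replicate 1 it was 42.1%, and without control replicate 2 it was 41.5%. Without a filter on low counts, KLF5 and KLF10 lost their calls (adjusted p = 0.152 and 0.154), and 27.8% of all genes were called.

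**Figure D5:**
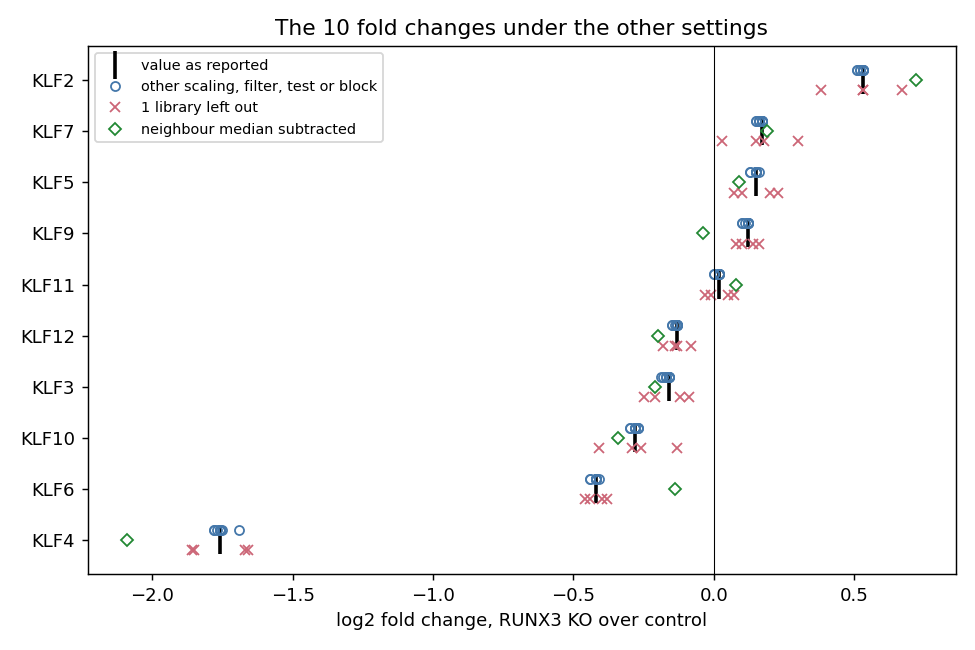
Marks give the log2 fold change of each KLF gene as reported (black bar), under other scalings, filters, tests or the block (blue circles), with 1 library left out (red crosses) and after subtraction of the neighbour median (green diamonds). KLF4 lies between -2.09 and -1.66 in all of them, KLF6 moves to -0.14 after subtraction, and KLF11 lies on both sides of 0.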

How the data were processed

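The data were 4 RNA-seq libraries of HGC-27 cells, 2 control and 2 RUNX3 KO. The authors deposited raw counts of reads per gene symbol for each library, without normalization. The submitters' processing notes list bcl2fastq, HISAT2 2.1.0, HTSeq and hg19, whereas the paper's methods name STAR and featureCounts with GENCODE. Medium and RNA kit also differ between the labels and the paper. The libraries came from a stranded poly(A) kit per the labels, the strand setting of the counting was not given in the sources used here, and KLF3, KLF4, KLF7 and KLF11 overlap exons of antisense genes. The 5 closing rows for reads without a gene took 25.9% to 28.1% of counts and were left out. Depth limits the precision of low genes, and intervals cover the spread between these libraries only.

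Tests used edgeR 4.0.16 under R 4.3.3 (filterByExpr with a minimum count of 10 and total of 15, TMM, quasi-likelihood test, prior count 0.125, common dispersion 0.000211, two-sided). Groups came from the sample titles. Standard errors came from the log2 fold change and the F statistic. The named genes were the 10 KLF genes, the tested KLF and SP relatives, RUNX3 and the 4 genes each of the partner and target lists with the largest change among those with an adjusted p under 0.05 and a mean of at least 50 counts. These members and lists were chosen with earlier results of these data known. Positions and lengths came from GENCODE v44 on GRCh37, with 94.2% of tested genes placed, and neighbourhoods took the nearest 20 tested genes on each side. The steps were tested on simulated data. Alternatives were other scalings, filters and tests (DESeq2 1.42.0, edgeR's exact test, limma-voom with limma 3.58.1), a prior count of 2, a replicate block, each library left out and subtraction of the neighbourhood median.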

Additional observations from a re-analysis of the deposited data

How the results depend on the processing

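Of 150 values of the 10 KLF fold changes under the alternatives, 127 counted as kept. With a test, this meant the same direction and the same side of the threshold. Without a test, it meant a move of no more than the SD of the log2 level between the 2 control libraries. In none of the 10 genes did a called change turn its sign. With DESeq2 the numbers were 0 higher KLF genes, 1 lower and 0 higher KLF and SP relatives, 3 lower and 5 higher partner genes and 5 higher target genes. Without a filter there were 1 higher KLF gene and 1 higher relative. With each library left out in turn, higher KLF genes ranged from 0 to 2, lower relatives from 1 to 2 and higher relatives from 0 to 2, lower partner genes from 2 to 6 and higher ones from 3 to 8, and higher target genes from 3 to 8. Of all genes tested, 48.9% were called with all libraries, 42.1% and 41.5% without control replicate 1 and 2, 22.8% and 20.1% without RUNX3 KO replicate 1 and 2, 28.5% with DESeq2 and 27.8% without a filter, and the cause of these differences was not tested. The median of the KLF genes ranged from -0.07 to -0.01 with a library left out and was -0.09 after subtraction of the neighbourhood median. RUNX3 ranged from -0.86 to -0.55. With a library left out KLF11 ranged from -0.03 to 0.07, SP2 from -0.07 to 0.06 and SP9 from -0.30 to 0.69. KLF11 turned to -0.01 and -0.03 without control replicate 2 and RUNX3 KO replicate 1, SP2 to 0.06 and 0.01 without the same libraries, and SP9 to -0.30 and -0.07 without control replicate 2 and RUNX3 KO replicate 2, none of them called. After subtraction of the neighbourhood median KLF9 turned from 0.12 to -0.04, SP1 from -0.02 to 0.11 and SP2 from -0.00 to 0.13, with no test. The replicate numbers share only a number, with a correlation of 0.0218 between deviations of same-numbered libraries, and a block for them left 3 lower and 2 higher KLF genes and changed no list count. At this depth, the genes with the fewest counts, KLF2, KLF4 and KLF7, have the widest intervals of the 10.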
